A study of Mus musculus with 6 samples.

Results

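The genes described here are Maf1, a repressor of RNA polymerase III (Pol III), and 9 genes for parts of the Pol III machinery, 10 of the 48967 genes with exonic parts in the data. Maf1 was selected on its higher counts in the delipidated embryos, so its values are a description without a test, whereas Brf1, Brf2, Bdp1, Polr3a, Polr3b, Polr3c, Polr3d, Polr3e and Polr3g were listed by function. Pol III makes the small structural RNAs of the cell, among them the transfer RNAs, the 5S ribosomal RNA and several RNAs of RNA processing. It is brought to its genes by the factor TFIIIB, and the protein Maf1 represses it by binding both the polymerase and TFIIIB when nutrients or growth signals are low. In the egg and the early embryo this machinery has to serve a cell that first runs on stored maternal RNA and then begins to transcribe its own genes.

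RNA was sequenced from 2-cell mouse embryos that came from delipidated or control zygotes, to see which genes respond to the loss of lipid droplets, the cell's stores of neutral lipid. All embryos were wild type (wt), of the strain F1 (C57Bl/10 X CBA/H), and grew from 0.5 to 2.0 days post coitum in KSOM medium without fatty acids, with collection on day 2. For delipidation, zygotes in cytochalasin B at 50 µg/mL were spun at 4200 g and then at 9500 g, each for 10 min, and the gathered droplets were drawn out through a laser-made hole in the zona pellucida. The labels of the control embryos name culture from the zygote alone, and the study's methods call them the control (IVC) group, for in vitro culture. For another experiment the methods name non-manipulated zygotes. Whether the sequenced controls went through cytochalasin B, the spins or the opening of the zona is not clear from the labels or methods. The effect of these steps apart from the loss of lipid was not tested. Several females treated with hormones gave the embryos, which were put together and assigned to a group at random. Each of the 3 control and 3 delipidated libraries held 3 embryos. The replicates are therefore pools from a shared collection, and p-values measure only the spread between these pools.

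The library totals over genes were 12164963, 16165958 and 12980787 in the control libraries, against 20059460, 16332103 and 14683741 in the delipidated libraries. Levels are given as counts per 1000000 counts (CPM), for which each library was divided by its total after the filter on low counts and by its TMM normalization factor. At least 1 count was found for 22855, 22437 and 20582 genes in the control libraries and for 17091, 19408 and 20158 genes in the delipidated libraries, so the deepest library, Delipidated 1, had the fewest genes. Markers of the labelled stage were present. All 13 matched markers of 2-cell genome activation had counts, 12 of them in every library. Duxf3, which was named after its values were seen, had 0 counts in Delipidated 1. The mean of Zfp352 over the 6 libraries was the highest, with that of Usp17lc, which was named after its values were seen, close to it. Zfp352 had 120, 54.5 and 88.1 CPM in the control and 42.2, 86.2 and 144 CPM in the delipidated libraries. All 11 oocyte and maternal markers were found in every library, led by Oosp1, for which control embryos had 467 ± 116 and delipidated embryos 460 ± 98.6 CPM (SD, n = 3 each).

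Maf1 (ENSMUSG00000022553) is a gene of the forward strand at chr15:76351294-76354380 (GRCm38) with 40 exonic parts, the non-overlapping pieces into which its exons are divided. The parts added up to 31, 4 and 15 counts in the control libraries, against 506, 136 and 261 in the delipidated libraries. This corresponded to 2.62, 0.242 and 1.14 CPM in the control and 25.0, 8.35 and 18.4 CPM in the delipidated embryos. The lowest delipidated library, Delipidated 2, lay above the highest control library, Control 1. Maf1 was selected on this rise, and every delipidated library was higher for 3.81% of all genes tested. The means were 1.33 ± 1.20 and 17.3 ± 8.38 CPM (SD, n = 3 each). The log2 fold change came to 3.71, a description of a gene selected on its rise. It was 4.67 without Control 1 and 3.20 without Control 2, the control libraries with the highest and the lowest level. Since each library is a lysate of whole embryos, fewer cells with the transcript and less of it per cell cannot be told apart. The counts of Maf1 are low in the control embryos, and a read that spans several parts is counted in each, so fewer reads than these sums lie behind the values.

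**Figure D1:**
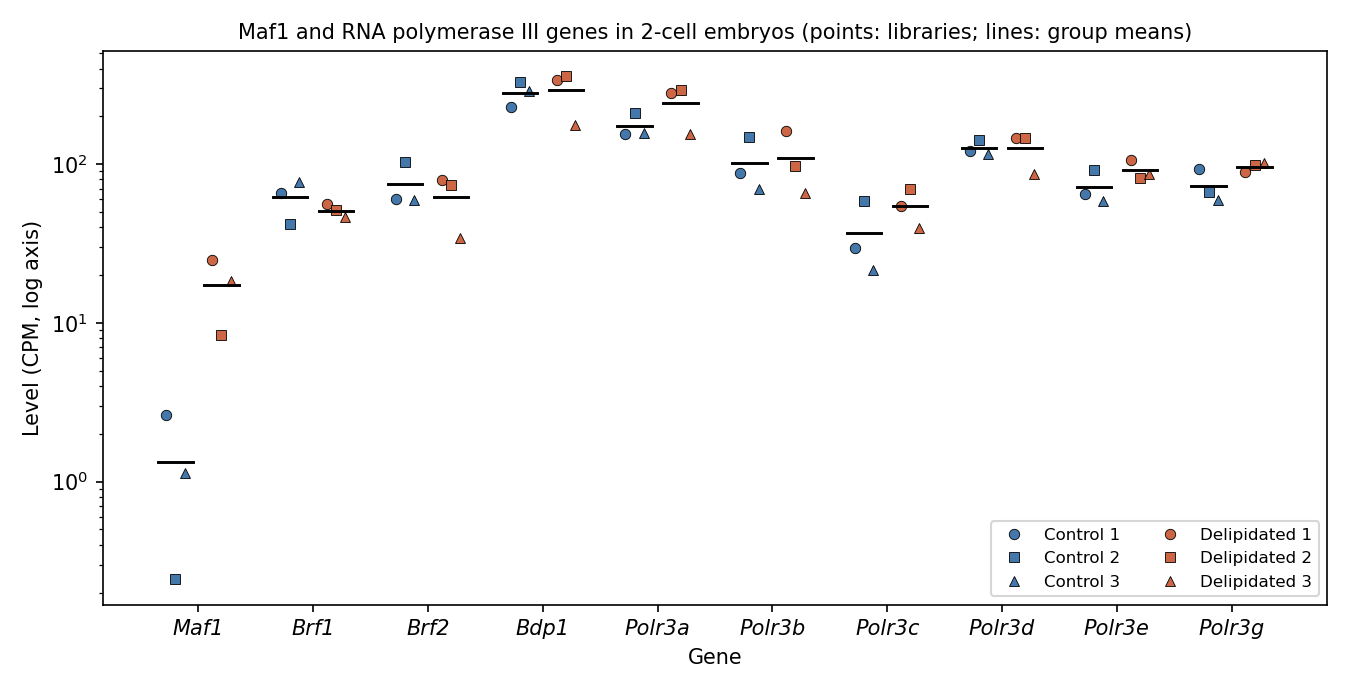
Levels of Maf1 and the 9 other Pol III genes in CPM on a log axis, with a point for each library (blue for control, orange for delipidated) and a line for each group mean. Maf1 was selected on its rise. Its 3 delipidated libraries lie above the 3 control libraries, at 8.35 to 25.0 against 0.242 to 2.62 CPM. Every delipidated library was higher for 3.81% of all genes tested. The groups overlap for each of the other 9 genes.

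The exonic parts show where these counts lie. The reference transcript of Maf1 in GENCODE M21 has 8 exons and 1686 bases, with the coding sequence from exon 2 to exon 8. Counts were found on 12, 2 and 7 of the 40 parts in the control libraries and on 19, 17 and 20 parts in the delipidated libraries. By length, 36.0%, 7.50% and 24.3% of the 2412 bases had a count in the control libraries, against 43.0%, 55.4% and 53.6% in the delipidated libraries. For the other 9 genes this share ranged from 51.7% to 100% over all 6 libraries. Maf1 was the most thinly covered of the 10 in every library except Delipidated 2, where Polr3e had 51.7% against 55.4% for Maf1. For 1 of the 9, Polr3e, every delipidated library was lower in this share. Over all genes tested, every delipidated library was lower in it for 1096 genes (6.84%) and higher for 130 genes (0.811%). The part with the highest count in any control library had 7 counts, in Control 3, and it lay outside the exons of the reference transcript. The highest counts on a part were 64 in Delipidated 1, 19 in Delipidated 2 and 22 in Delipidated 3.

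Exon 1, which is not translated, held the part with most counts, from 76351409 to 76351659. This part had 2, 0 and 0 counts in the control libraries, against 64, 3 and 22 counts in the delipidated libraries. In exon 3 the highest counts on a part were 6, 0 and 2 in the control and 33, 3 and 12 in the delipidated libraries. In exon 4 they were 2, 0 and 1 in the control and 33, 18 and 5 in the delipidated libraries. The delipidated libraries were not covered alike. Delipidated 1 had 0 counts on all parts of exons 5, 6 and 7, although exon 4 before them reached 33 and exon 8 after them reached 30. Delipidated 3 had counts on all 8 exons, with 22 on exon 5, 17 on exon 6 and 9 on exon 7. Delipidated 2 had up to 19 counts on exon 5 and 3 on exon 6, and 0 on exon 7. In Control 2 the 4 counts of the gene were 2 on a part of exon 6 and 2 on exon 7.

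Adjacent parts often carried the same count. In Delipidated 1, 33 counts stood on each of the parts of exon 3 and on all but the last part of exon 4, with 0 counts on the 72 bases between these exons. Over the 19 parts with a count, Delipidated 1 had 6 different values, Delipidated 2 had 6 over 17 parts and Delipidated 3 had 7 over 20 parts. Equal counts on adjacent parts can stem from the same reads, each counted on several parts. In all 3 delipidated libraries, 5 of the 40 parts had a count, and on 3 parts every delipidated library was above every control library. Parts can share reads and Maf1 was selected on its rise, so these 3 parts are no further result. Parts of the reference transcript held 100%, 100% and 53.3% of the summed counts of Maf1 in the control and 96.4%, 95.6% and 94.6% in the delipidated libraries.

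**Figure D2:**
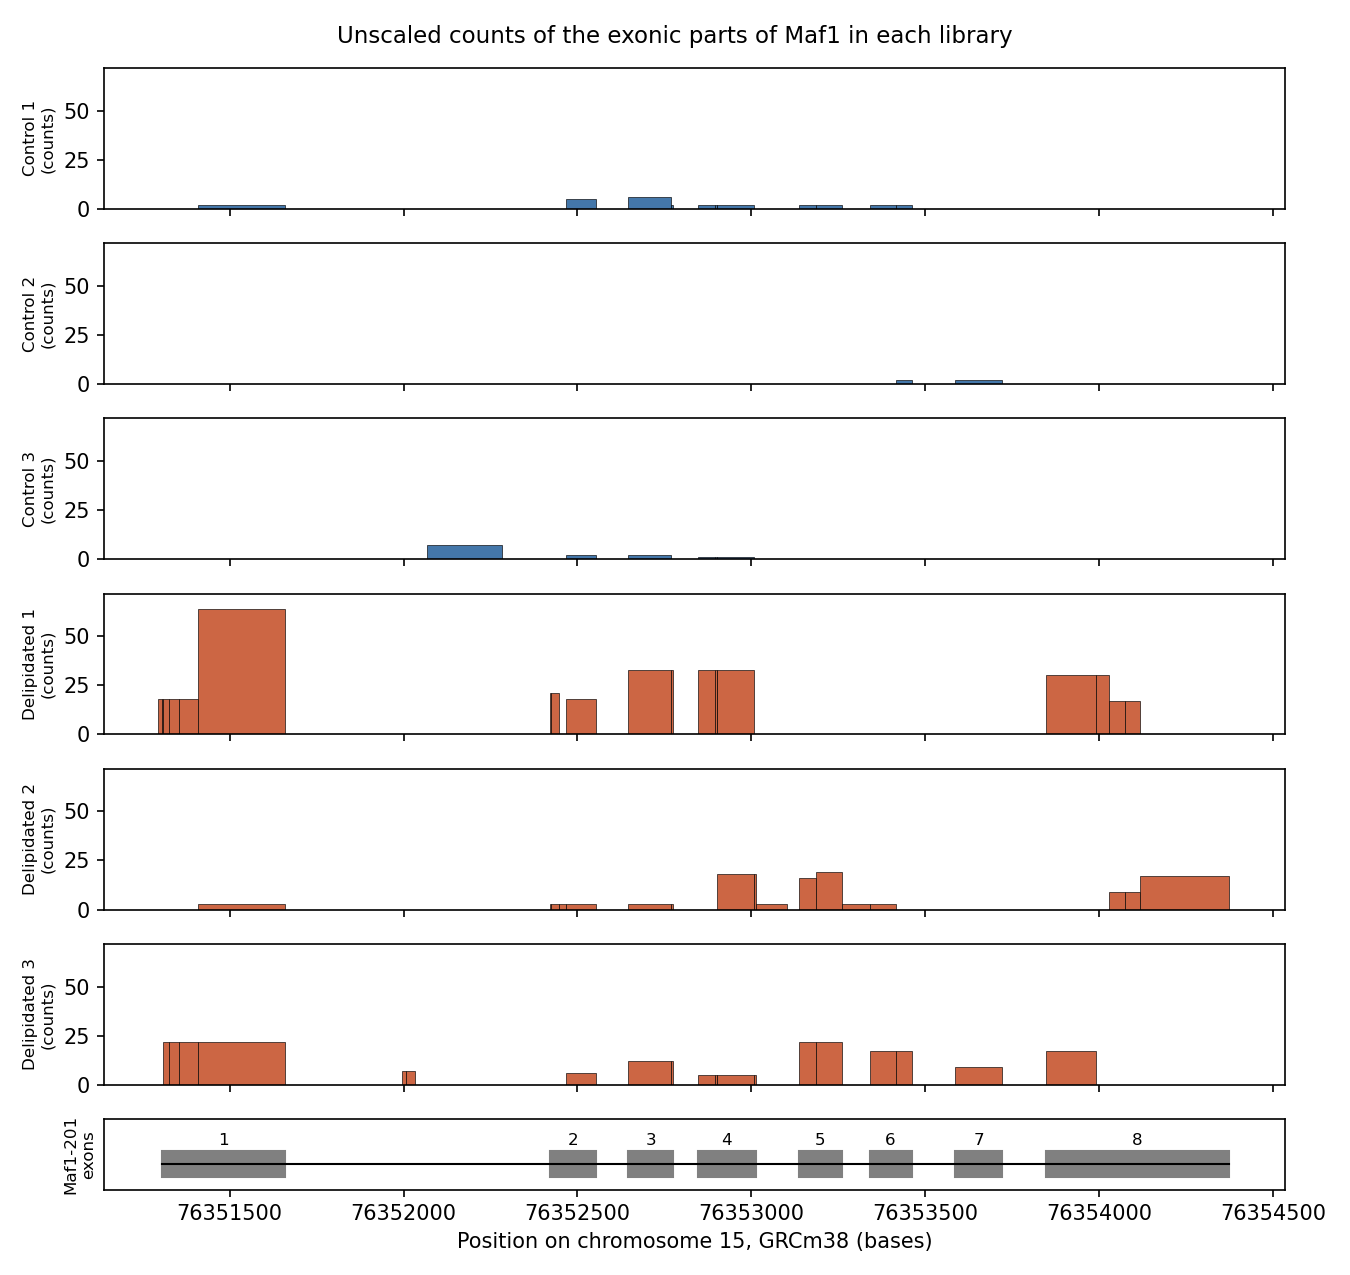
Counts of the 40 exonic parts of Maf1, not scaled for depth, along chromosome 15 of GRCm38 in each library (blue for control, orange for delipidated), above the 8 exons of the reference transcript. Bars are as wide as the part. Delipidated 1 reaches 64 counts on exon 1 and has none on exons 5 to 7, and the highest part of any control library has 7 counts.

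Exons 5 and 6 are coding, and Delipidated 1 had no counts on them while Delipidated 3 had up to 22 and 17, so their sequences are shown from the GENCODE M21 transcript on GRCm38, forward strand. Exon 5 is chr15:76353138-76353259 and exon 6 is chr15:76353341-76353460. Capitals mark the exonic part with the highest count within each exon, summed over the 6 libraries.
Maf1 exon 5: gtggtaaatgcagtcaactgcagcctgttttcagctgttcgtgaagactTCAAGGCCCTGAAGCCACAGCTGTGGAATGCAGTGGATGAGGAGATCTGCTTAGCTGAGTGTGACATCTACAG
Maf1 exon 6: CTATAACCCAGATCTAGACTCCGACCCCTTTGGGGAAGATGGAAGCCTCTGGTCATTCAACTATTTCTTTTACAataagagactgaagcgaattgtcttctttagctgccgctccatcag

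The nearest genes on either side were named for their position, after the values of Maf1 were seen. Sharpin, which ends 182 bases before Maf1 on the opposite strand, had 0.675, 3.21 and 6.69 CPM in the control and 2.07, 6.63 and 0.706 CPM in the delipidated libraries. Gm35339, which starts 91 bases after Maf1, had 0, 12 and 12 counts in control embryos, with 0 in each delipidated library. The levels of Sharpin overlapped between the groups, and Gm35339 was too low to be tested. No counts of Maf1 lay on parts that overlap an exon of the opposite strand.

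The pattern of Maf1 over the 6 libraries was compared with that of the other 16019 tested genes by Pearson's r of log2(CPM + 1). The 5 most similar genes were Scg3 (r = 0.99), Poc5 (r = 0.98), Gm43857 (r = 0.98), Hist2h2ac (r = 0.97) and Fam217a (r = 0.97). The 6 libraries include both groups, so a gene that differs between the groups scores high by this measure. Scg3, which codes for a protein of secretory granules, had 54.3, 33.8 and 46.4 CPM in the control and 96.4, 69.3 and 97.0 CPM in the delipidated libraries. Poc5, a centriole gene, had 120, 97.8 and 115 CPM in the control and 154, 131 and 151 CPM in the delipidated libraries. Both were picked for their high r with Maf1, so that likeness is no further result.

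The other 9 genes were tested with edgeR's quasi-likelihood test, with the Benjamini-Hochberg adjustment over all 16020 genes that passed the filter on low counts. All 9 passed this filter. To be called, a gene needed an adjusted p-value under 0.05 together with a log2 fold change beyond 1. None of the 9 was called in either direction, and over all genes 0 were called higher (0%) and 0 lower (0%). Before adjustment, p was under 0.05 for 463 genes (2.89%) and for 0 of the 9. DESeq2's Wald test, without the filter on low counts, started from 30967 genes. It called 9 genes higher and 40 lower, and none of the 9 listed by function was among them. DESeq2's default filtering before the adjustment was left on. The groups did not overlap for 611 tested genes with every delipidated library higher (3.81%) and for 809 with every delipidated library lower (5.05%), and for 0 of the 9. The median log2 fold change was 0.09 over the 9 genes and -0.00073 over all genes tested.

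TFIIIB is built from Bdp1, a TATA-binding protein and either Brf1, which serves most Pol III genes, or Brf2, which serves genes with promoters outside the transcribed region. Brf1 had 65.5, 42.2 and 77.4 CPM in the control and 55.7, 51.1 and 46.1 CPM in the delipidated libraries. Its 3 delipidated libraries lay within the range of the controls, and the log2 fold change came to -0.27 ± 0.30 (SE, edgeR adjusted p = 1.00). Brf2 had 60.7, 103 and 59.4 CPM in the control and 79.5, 73.3 and 34.5 CPM in the delipidated libraries. Delipidated 3 was the lowest of all 6 libraries and Control 2 the highest, and the log2 fold change came to -0.25 ± 0.36 (SE, edgeR adjusted p = 1.00). Of the counts of Brf2, 14.9% lay on parts that overlap an exon on the opposite strand, where reads of the other gene may be included. Bdp1 had 228, 327 and 289 CPM in the control and 341, 358 and 176 CPM in the delipidated libraries. Here too Delipidated 3 was the lowest library, and the log2 fold change came to 0.05 ± 0.27 (SE, edgeR adjusted p = 1.00).

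Polr3a and Polr3b code for the large subunits that form the catalytic core. Polr3a had 155, 211 and 158 CPM in the control and 281, 293 and 154 CPM in the delipidated libraries. Delipidated 1 and Delipidated 2 were above all controls and Delipidated 3 was below them. The log2 fold change of Polr3a came to 0.48 ± 0.27 (SE, edgeR adjusted p = 1.00). Polr3b had 87.8, 149 and 70.2 CPM in the control and 163, 97.9 and 65.9 CPM in the delipidated libraries. Its groups covered nearly the same range, with a log2 fold change of 0.09 ± 0.36 (SE, edgeR adjusted p = 1.00).

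Polr3c and Polr3g belong to a subcomplex that acts in initiation, in which Polr3g can be replaced by its paralog Polr3gl. Polr3c had 29.8, 58.4 and 21.5 CPM in the control and 54.8, 69.4 and 39.4 CPM in the delipidated libraries. Control 2 lay among the delipidated libraries, and the log2 fold change came to 0.57 ± 0.40 (SE, edgeR adjusted p = 1.00). It was 1.09 without Control 2 and 0.30 without Control 3. Polr3g, the form known from pluripotent cells, had 93.1, 67.0 and 59.4 CPM in the control and 89.4, 98.1 and 102 CPM in the delipidated libraries. Control 1 lay between Delipidated 1 and Delipidated 2, and the log2 fold change came to 0.40 ± 0.26 (SE, edgeR adjusted p = 1.00). Polr3gl, the form of most somatic cells, had 48, 248 and 45 counts in control embryos, as against 264, 257 and 173 in delipidated embryos. On the CPM scale Control 2 lay among the delipidated libraries and the other controls below them, the log2 fold change came to 0.86 ± 0.62 (SE, edgeR adjusted p = 1.00), and 23.7% of its counts lay on parts shared with the opposite strand. Per length, Polr3g was 9.32, 1.81 and 7.04 times as abundant as Polr3gl in the control and 2.78, 2.52 and 3.39 times in the delipidated libraries. The ratio was above 1 in all 6 libraries, and Control 2 had the lowest value. The ratio also depends on the division into parts, 16 over 3936 bases in Polr3g and 15 over 1597 bases in Polr3gl.

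Polr3d and Polr3e form a subcomplex that acts in initiation and termination. Polr3d had 121, 142 and 116 CPM in the control and 147, 147 and 87.1 CPM in the delipidated libraries. The group means of 126 ± 13.5 and 127 ± 34.5 CPM (SD, n = 3) were close, with a log2 fold change of 0.01 ± 0.26 (SE, edgeR adjusted p = 1.00). Polr3e had 64.6, 91.6 and 58.9 CPM in the control and 106, 82.2 and 87.0 CPM in the delipidated libraries. Control 2 lay inside the range of the delipidated libraries, and the log2 fold change came to 0.35 ± 0.27 (SE, edgeR adjusted p = 1.00). The share of the 5024 bases of Polr3e with a count was 100%, 100% and 99.5% in the control and 59.7%, 51.7% and 67.4% in the delipidated libraries. Its longest part is the last, chr7:120946250-120947432 with 1183 bases, and this part had 3, 4 and 6 counts in the control and 0 in each delipidated library. On the part with most counts in place of the sum, the log2 fold change of Polr3e was -0.17. For 5 of the 9 genes, Brf2, Bdp1, Polr3b, Polr3d and Polr3e, the sign of the fold change turned in at least 1 alternative analysis.

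Levels of different genes were compared per kilobase of exonic parts. Since a read is counted on every part it spans, such a level also depends on how finely a gene is divided, from 40 parts over 2412 bases in Maf1 to 16 parts over 3936 bases in Polr3g. In the control embryos, Polr3d was the most abundant of the 10 genes with 58.6 ± 6.25 CPM per kilobase (SD, n = 3), followed by Polr3a with 37.3 ± 6.71 and Bdp1 with 25.6 ± 4.57. The ranges of these 3 genes did not overlap over the control libraries. Brf2, Brf1, Polr3b, Polr3g, Polr3e and Polr3c followed, from 23.2 ± 7.81 down to 10.8 ± 5.72 CPM per kilobase (SD, n = 3). From Bdp1 to Polr3c, each gene overlapped in range with the next in this order. Maf1 was the lowest, with 0.552 ± 0.497 CPM per kilobase (SD, n = 3) in the control embryos, and its range did not overlap with that of any of the 9. In the delipidated embryos Maf1 had 7.15 ± 3.47 CPM per kilobase (SD, n = 3), against 16.1 ± 4.43 for Polr3c, the lowest of the other 9 there.

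The other genes of the machinery were taken from lists made by function. Of the 12 other subunits of Pol III, many of them shared with other polymerases, 12 were tested, 0 were called higher and 0 lower by edgeR, and 0 had an unadjusted p-value under 0.05. Their median log2 fold change was 0.17, with 7 positive and 5 negative values. The smallest p-values in this list belonged to Polr1d and Polr2e. Polr1d, a subunit shared with RNA polymerase I, had a log2 fold change of 0.50 ± 0.35 (SE, edgeR adjusted p = 1.00). Polr2e, which is found in all the nuclear RNA polymerases, had 74.6, 77.0 and 64.1 CPM in the control and 106, 77.5 and 92.2 CPM in the delipidated libraries. It was the 1 gene of this list whose groups did not overlap, although Delipidated 2 and Control 2 nearly met, and 3.81% of all genes tested had every delipidated library higher.

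Of 16 other initiation factors, all were tested, 0 were called by edgeR in either direction, and 0 had an unadjusted p-value under 0.05. Their median log2 fold change was -0.11, with 6 positive and 10 negative values. Snapc2, a part of the complex that binds promoters of small nuclear RNA genes, had a log2 fold change of -0.56 ± 0.38 (SE, edgeR adjusted p = 1.00). Tbp, the TATA-binding protein that all the nuclear polymerases use, had 218, 178 and 194 CPM in the control and 173, 184 and 102 CPM in the delipidated libraries. Delipidated 2 lay among the controls, and the log2 fold change came to -0.36 ± 0.25 (SE, edgeR adjusted p = 1.00). Every delipidated library was below every control library for 1 gene of this list, Gtf3c2, a subunit of the factor TFIIIC, which was named after its values were seen. That is 1 of 16 genes, against 5.05% of all genes tested. All its counts come from parts listed under joined identifiers of overlapping genes.

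**Figure D3:**
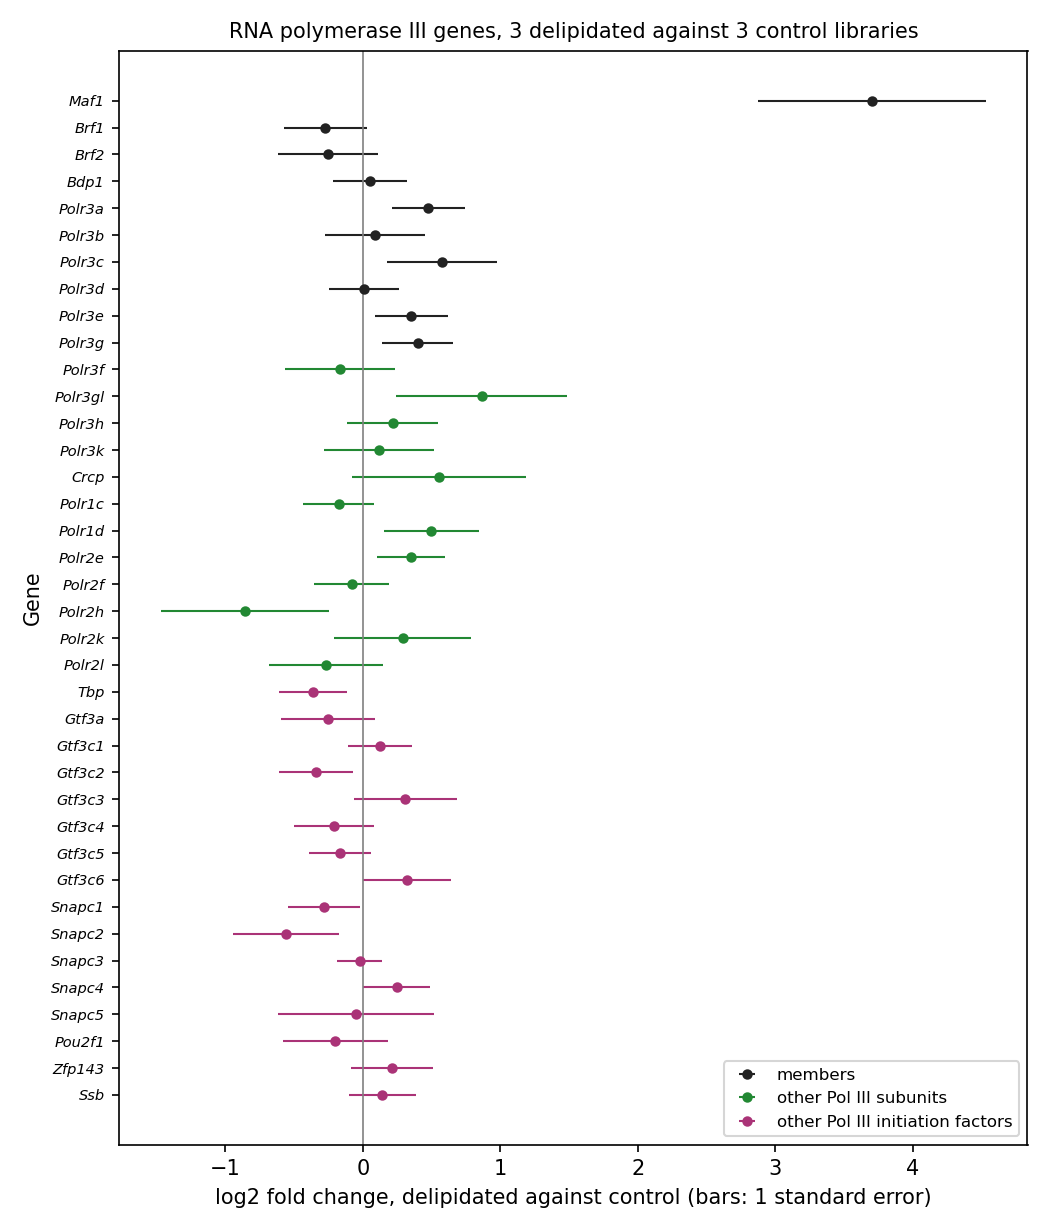
Log2 fold changes of Maf1 and the 9 other Pol III genes (black), the 12 other Pol III subunits (green) and the 16 other initiation factors (purple), delipidated against control, with bars of 1 standard error over 3 against 3 libraries. Maf1, which was selected on its rise, stands at 3.71, and its bar is no test. The others lie between -0.86 and 0.86.

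Genes that act on Maf1 or Pol III, such as the kinase mTOR that phosphorylates Maf1, the protein kinase CK2 and the phosphatases that reverse these marks, made up a list of 13 genes. All 13 were tested, 0 were called by edgeR in either direction, and 0 had an unadjusted p-value under 0.05. The median log2 fold change was -0.07. Csnk2b, the regulatory subunit of CK2, had 267, 324 and 350 CPM in the control and 251, 237 and 271 CPM in the delipidated libraries. Delipidated 3 was above Control 1, and the log2 fold change came to -0.31 ± 0.19 (SE, edgeR adjusted p = 1.00). Rptor, the subunit by which the mTOR complex binds its substrates, had 77.9, 70.3 and 93.6 CPM in the control and 67.8, 69.1 and 46.5 CPM in the delipidated libraries. It was the 1 gene of the list with no overlap between the groups, where 5.05% of all genes tested had every delipidated library lower, and its log2 fold change came to -0.40 ± 0.27 (SE, edgeR adjusted p = 1.00).

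Of 10 listed products of Pol III, 9 were matched, 8 of them had a count and 7 were tested. Rnu6 was matched but had 0 counts in all 6 libraries. Transfer RNAs and 5S ribosomal RNA were not analysed here. By edgeR 0 of the 7 were called in either direction, 0 had an unadjusted p-value under 0.05, and the median log2 fold change was 0.12. Rn7sk, an RNA that restrains the elongation factor P-TEFb, was the most abundant, with 743, 847 and 902 CPM in the control and 900, 825 and 674 CPM in the delipidated libraries, and it was named after its values were seen. The groups overlapped, and its log2 fold change came to -0.05 ± 0.17 (SE, edgeR adjusted p = 1.00). Vaultrc5, a vault RNA, had 9.45, 6.83 and 7.22 CPM in the control and 15.8, 8.48 and 8.82 CPM in the delipidated libraries. Control 1 lay above Delipidated 2 and Delipidated 3. Rmrp, the RNA of a ribonuclease that processes ribosomal RNA, had 4.30, 2.06 and 2.81 CPM in the control and 5.73, 4.48 and 4.59 CPM in the delipidated libraries, without overlap, as for 3.81% of all genes tested. Control 1 and Delipidated 2 nearly met, and 100% of its counts lie where an exon of the opposite strand overlaps. The log2 fold changes of Vaultrc5 and Rmrp were 0.50 and 0.69 with standard errors of 0.52 and 0.74 (edgeR adjusted p = 1.00 for both).

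The core subunits of RNA polymerases I and II served for comparison, a list of 4 genes. By edgeR 0 of the 4 were called in either direction, and 2, Polr2a and Polr2b, had an unadjusted p-value under 0.05, against 2.89% of all genes tested. Polr1a and Polr1b, the core of RNA polymerase I, had log2 fold changes of -0.21 ± 0.27 (SE) and 0.29 ± 0.30 (SE), with groups that overlapped (edgeR adjusted p = 1.00 for both), and were named after their values were seen. Polr2a, the largest subunit of RNA polymerase II, had 219, 283 and 233 CPM in the control and 343, 358 and 315 CPM in the delipidated libraries. Polr2b, its partner in the catalytic core, had 209, 216 and 269 CPM in the control and 155, 168 and 153 CPM in the delipidated libraries. The groups did not overlap in either gene, with every delipidated library higher for Polr2a, as for 3.81% of all genes tested, and lower for Polr2b, as for 5.05%. The log2 fold changes were 0.47 ± 0.19 (SE) for Polr2a and -0.54 ± 0.20 (SE) for Polr2b, and neither was called (edgeR adjusted p = 1.00 for both). The log2 fold change of Polr3a, 0.48, was as large as that of Polr2a, with a larger standard error.

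Cumulus cells, which surround the egg, were removed with hyaluronidase by the study's methods, and their markers and those of granulosa cells were checked. Of the 13 markers, 11 had a count in at least 1 library and Foxl2 and Ptx3 were at 0 in all 6. Their summed level was 18.7, 19.1 and 40.1 CPM in the control and 2.12, 9.58 and 12.1 CPM in the delipidated libraries. Vim, an intermediate filament gene of many somatic cells, was the most abundant, with 12.8, 8.77 and 22.8 CPM in the control libraries and 0 counts in each delipidated library, where a count of 0 allows up to 0.148, 0.184 and 0.212 CPM, for counting error only. Without Vim the sums were 5.91, 10.3 and 17.3 CPM in the control and 2.12, 9.58 and 12.1 CPM in the delipidated libraries, and they overlapped. Of the 4 markers that could be tested, the log2 fold change was positive for 2 and negative for 2, edgeR called 0, and 1, Vim, had an unadjusted p-value under 0.05. The edgeR adjusted p of Vim was 0.0721, the smallest over all genes tested. The groups were apart in the summed level with Vim only, and the part of Vim's difference in the values of Maf1 and the Pol III genes was not tested.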

How the data were processed

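The deposited values are raw counts of uniquely mapped reads per exonic part, 425461 parts per library, for 6 libraries of 2-cell embryos. The submitters' processing notes name bcl2fastq 2.20, Trimmomatic 0.36, STAR 2.5.2b, featureCounts and the build mm10. Before that, the authors had depleted ribosomal RNA and made stranded total RNA libraries. The study's methods give no strand setting for the counting. Counts on parts that overlap an exon of the opposite strand may therefore include reads of both genes.

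Parts were summed per gene. Of 33309 parts under joined identifiers, 27968 overlap the exons of 1 gene and were assigned to it, and the rest, 2.49% to 2.57% of each library's counts, were left out. Gene names and exons came from GENCODE M21. The groups, taken from the sample titles, were tested against each other in edgeR 4.0.16 under R 4.3.3 (filterByExpr, min.count 10, min.total.count 15, TMM, quasi-likelihood test without covariates, Benjamini-Hochberg over 16020 genes). The common biological coefficient of variation was 0.663. The unblocked design of 3 against 3 allows no two-sided exact permutation p under 0.1.

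The members and gene lists were chosen with earlier results of these data known. Genes named are the 10 members, from each list of polymerase genes those with an unadjusted p under 0.05 or otherwise the 2 with the smallest p, Polr3gl, the 5 genes most similar to Maf1 and the most abundant gene of each marker list. Listed genes without a count in any library are named as well. Others are marked where they appear. Alternatives were DESeq2 1.42.0 without the filter on low counts but with its default filtering, DESeq2's size factors, and no filter. The replicate number as a block, each library left out and the part with most counts in place of the sum were further alternatives. The last were sums without parts that overlap the opposite strand or without joined identifiers. Python 3.11.15 was used for tables. Bc1 and Eif1ad2, which were listed, were not analysed here.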

Additional observations from a re-analysis of the deposited data

How the results depend on the processing

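Of the 13 alternatives, 12 gave a value for Maf1, and its log2 fold change was positive in each. Maf1 was selected on its rise and its groups do not overlap. A positive sign with any library left out was therefore fixed in advance and is no further result. Leaving out each library in turn gave 3.20 to 4.67, and the replicate block gave 4.03. With the part with most counts in place of the sum, Maf1 fell under the filter on low counts and has no value. Tested by DESeq2's Wald test without a filter, 9 genes were called higher and 40 lower. Tested by edgeR without a filter, 5 were called higher and 25 lower. Both tests started from 30967 genes in place of 16020, of which DESeq2's default filtering could leave some out of its adjustment. The cause of the added calls was not tested. The other alternatives called 0 genes in either direction. None of the 9 other members and no gene of the other Pol III lists was called in any alternative, and the smallest adjusted p of these 9 members was 0.718.

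The sign of the log2 fold change turned in 16 of 117 comparisons for these 9 genes, and the cause was not tested. With each library left out, Brf2 ranged from -0.47 to 0.058, Bdp1 from -0.12 to 0.31, Polr3b from -0.32 to 0.46 and Polr3d from -0.11 to 0.21. For the members that kept their sign, leaving out a library gave -0.49 to -0.08 for Brf1, 0.32 to 0.72 for Polr3a, 0.30 to 1.09 for Polr3c and 0.27 to 0.62 for Polr3g, and Polr3e ranged from 0.23 to 0.57. With the part with most counts, the values were -0.056 for Bdp1, -0.087 for Polr3b and -0.17 for Polr3e. The replicate numbers do not pair the samples, since the correlations of same-numbered libraries were -0.0836, 0.0698 and 0.0428 and not every library correlated best with its own number. With the replicate block, 0 genes were called and Polr3d had -0.028.

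Maf1 had 31, 4 and 15 summed counts in the control libraries, so its control levels rest on few reads.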
